A study of Mus musculus with 173 samples.

Results

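Msh3, Msh6, Mlh3, Pms1, Pms2, Fan1, Lig1 and Rrm2b are 8 genes of mismatch repair, crosslink repair, DNA ligation and nucleotide supply that set the instability of CAG repeats or the age at which Huntington disease begins. They were chosen by name, from what is known of repeat instability. Earlier results of these data were known when they were chosen. All 8 of 8 matched a single entry among the 38561 Ensembl gene entries of the deposited tables.

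In mismatch repair, the MutS complex that holds MSH6 finds single mispaired bases and very short loops, and the one that holds MSH3 finds the larger loops that slipped CAG strands form. These call in MutL complexes, which hold PMS2, MLH3 or PMS1; the complexes with PMS2 and MLH3 cut DNA. In mouse models of Huntington disease, loss of Msh3 or Mlh3 stops somatic expansion of the repeat, whereas loss of the nuclease Fan1 speeds it. LIG1 seals the nicks that replication and repair leave, and RRM2B is the ribonucleotide reductase subunit, induced by p53, that supplies deoxynucleotides in cells that do not divide.

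The survey covers 11 tissues of 16 mice of strain C57BL/6, all 6 months old, whose polyadenylated RNA was sequenced. The 8 Q175 mice were heterozygous for a knock-in allele of Htt, the mouse huntingtin gene, with 175 CAG repeats, and the 8 wild-type mice carried no expanded allele; each genotype had 4 females and 4 males. The allele sits in the mouse gene itself, so every cell carries it and no promoter or Cre restricts it. Per the labels, Q175 mice were housed with Q175 mice, while wild-type mice were housed with mice of the Q20 line and carry animal codes of that line, so the 3 factors genotype, colony and housing cannot be told apart. Each tissue had 8 Q175 and 8 wild-type libraries, except gonadal white adipose with 7 wild-type and skin with 6. The 5 brain regions were brainstem, cerebellum, corpus callosum, hippocampus and hypothalamus/thalamus; the 6 peripheral tissues were brown adipose, white adipose around the gonad, white adipose around the intestine, gastrocnemius (a calf muscle), heart and skin. Striatum, cortex and liver were not analysed here.

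Library totals ran from 28 to 48 M estimated counts. Htt was lower in Q175 mice in 11 of 11 tissues, and the fall passed the edgeR test in 4. Abhd1, a gene whose level separates the genotypes in these tissues, lay in the wild-type range in 10 of 11 tissues of 1 Q175 male, and the genotype tests of the members were also fitted without that animal. For 10 of 10 tissues with a marker list, the list was highest in its own tissue; adipose around the intestine has no list of its own. In 23 libraries, the deviation from the tissue mean sloped with gene length by more than 0.1 log2 per doubling of length, in either direction: 6 of them were in gonadal adipose, 4 each in skin and hypothalamus/thalamus, 3 in corpus callosum, 2 each in hippocampus and intestinal adipose, and 1 each in brainstem and brown adipose. In bulk tissue, fewer cells of a type and less RNA per cell cannot be told apart.

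Levels are given as the deposited FPKM (fragments scaled to transcript length in kilobases and to the fragments of the library), so genes can be set side by side. FPKM was not rescaled between tissues. In wild-type mice its median over all genes was 0.42 log2 higher in brain regions than in peripheral tissues. The tissue orders and fold differences of levels below hold on this scale only. All 8 genes were detected in every library. In wild-type mice their tissue means ran from 0.47 FPKM for Lig1 in gastrocnemius to 17.1 FPKM for Lig1 in skin. Among the 8 genes, Rrm2b had the highest mean in 8 tissues, Lig1 in 2 (skin and intestinal adipose) and Pms2 in cerebellum. Pms1 had the lowest mean in 8 of the 11 tissues.

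The mismatch-recognition subunits Msh3 and Msh6 had different tissue ranges. Msh3 was highest in cerebellum, where wild-type libraries spanned 6.13 to 7.26 FPKM with a median of 7.0, and lowest in heart, with 2.11 to 3.25 and a median of 2.54. The means of 6.82 ± 0.402 and 2.55 ± 0.348 FPKM (SD, n = 8 each) differed by 2.67-fold, and the 2 groups of libraries did not overlap. In the order of the 11 tissues, 6 of the 10 gaps between neighbours were within the larger SD of the pair. Brainstem (5.8 FPKM), corpus callosum (5.76) and hippocampus (5.64) lay within an SD of each other, as did hypothalamus/thalamus (4.96) and skin (4.89), while the wide spread of intestinal adipose (5.07 ± 1.21) covered all of them. Msh6, the subunit for single mismatches, ranged more widely, by 8.27-fold. It was highest in intestinal adipose, at 5.78 to 14.9 FPKM with a median of 11.7, and in skin, at 8.67 to 10.8 with a median of 9.29. It was lowest in gastrocnemius, at 1.06 to 1.74 with a median of 1.26, and in heart, at 1.82 to 2.4 with a median of 2.17. The libraries of these 2 muscles did not overlap each other or any other tissue.

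Of the 3 MutL subunits, Mlh3 varied least and Pms2 most. Mlh3, whose complex acts in meiotic crossing-over and in repeat expansion, was highest in corpus callosum, at 5.04 to 6.74 FPKM with a median of 5.67, and in hippocampus, at 4.87 to 5.85 with a median of 5.41. Wild-type libraries of these 2 regions overlapped each other, and those of hippocampus lay above all of cerebellum, the next tissue (4.27 to 4.63). Pms1, whose complex has no known nuclease, was highest in cerebellum, at 3.46 to 4.11 FPKM with a median of 3.68. Its mean there, 3.74 ± 0.243 FPKM (SD, n = 8), was 4.75 times that of gonadal adipose (0.788 ± 0.127, n = 7). Pms2, the main MutL nuclease subunit, was also highest in cerebellum, at 7.64 to 9.74 FPKM with a median of 8.58, above every library of hypothalamus/thalamus, the next tissue. It was lowest in brown adipose, at 0.75 to 1.55 FPKM with a median of 1.16, a 7.52-fold difference of means.

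Fan1, the structure-specific nuclease, was highest in corpus callosum, at 4.87 to 7.63 FPKM with a median of 6.2, and lowest in skin, at 0.705 to 1.64 with a median of 0.972. Its means there differed by 5.67-fold. Rrm2b was highest in the same white-matter region, at 11.2 to 14.4 FPKM with a median of 13.1, and was likewise lowest in skin, at 2.11 to 4.58 with a median of 3.67. Lig1, the replicative ligase, had the widest range of the 8 genes, 36.3-fold. Skin held 10.7 to 27.3 FPKM with a median of 14.9, intestinal adipose 4.42 to 17 with a median of 12.3, and gastrocnemius 0.292 to 0.786 with a median of 0.436. The highest gastrocnemius library was thus below the lowest of skin and of intestinal adipose.

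**Figure D1:**
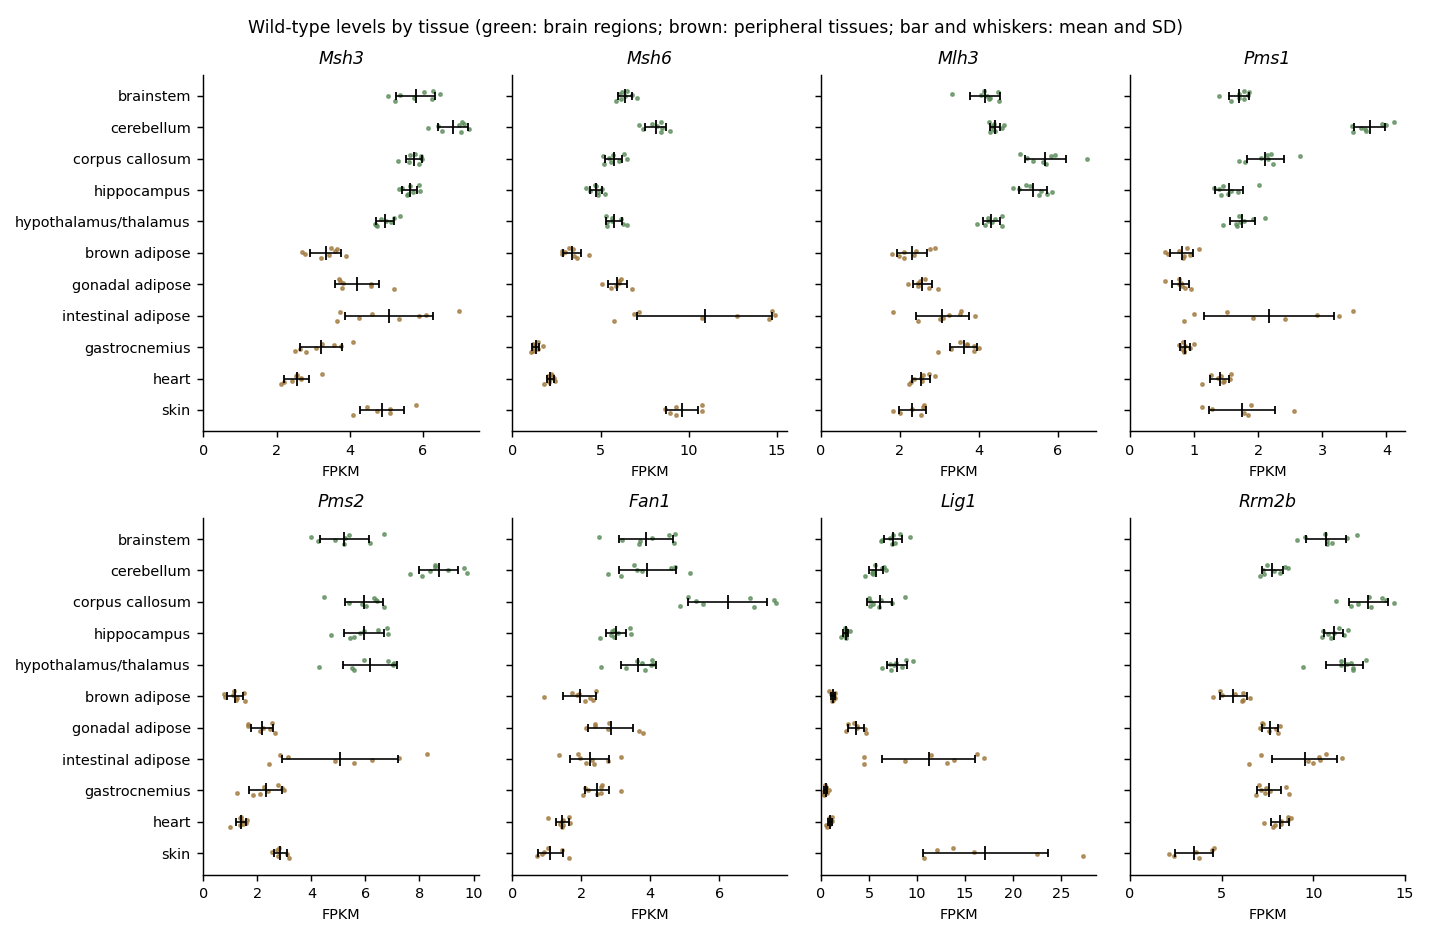
Wild-type FPKM of each of the 8 genes (horizontal axes, starting at 0, a separate scale per gene) in 11 tissues (rows; brain regions green, peripheral tissues brown); points are single libraries, the bar and whiskers the mean and SD. Msh6 and Lig1 reach their highest means outside the brain, with a wide spread in intestinal adipose, while Pms1 and Pms2 peak in cerebellum at 3.74 and 8.71 FPKM and Fan1 and Rrm2b in corpus callosum at 6.24 and 13 FPKM.

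The mean of the 5 brain regions was compared with that of the 6 peripheral tissues in wild-type mice, with animal as a term in edgeR's quasi-likelihood fit. On the FPKM scale all 8 genes had a higher mean over the brain regions, from 5.95 against 5.74 FPKM for Lig1 to 6.4 against 2.49 for Pms2. In the count fit, scaled by the trimmed mean of M values (TMM), 4 of the 8 genes were higher in brain, where 43% of 19928 genes were called higher, and 1 was lower, where 46.2% were called lower. Pms2 was higher by 0.84 ± 0.043 log2 (SE, adjusted p = 4.67e-30), Lig1 by 0.64 ± 0.059 (1.85e-16), Fan1 by 0.43 ± 0.062 (1.71e-09) and Mlh3 by 0.18 ± 0.035 (3.49e-06). The contrast averages log2 levels over tissues. Peripheral tissues held both the highest Lig1 means, skin (17.1 FPKM) and intestinal adipose (11.2), and the lowest, gastrocnemius (0.47), heart (0.897) and brown adipose (1.2). Msh6 was lower, at -0.12 ± 0.041 (adjusted p = 0.00373). Pms1, Rrm2b and Msh3 did not pass, at 0.10 (adjusted p = 0.119), 0.035 (0.355) and -0.019 (0.521). Most genes of the table differed between these sets of tissues, so a call by itself sets no member apart.

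These differences depend on how libraries of such different tissues are put on 1 scale. The median over all genes was -0.08 log2 with TMM, 0.06 with size factors of relative log expression (RLE) and 0.42 on FPKM values, and the members moved with it. The split of members called higher and lower was 4 to 1 with TMM, 7 to 0 with RLE and 8 to 0 on FPKM. Over all 19928 genes, calls higher and lower numbered 8563 and 9214 with TMM, 9283 and 8516 with RLE, and 11735 and 6857 on FPKM. Measured from the median of all genes, Pms2 was higher by 0.92, 0.92 and 1.06 log2 under the 3 scalings, Lig1 by 0.72, 0.72 and 0.61, Fan1 by 0.51, 0.51 and 0.62, and Mlh3 by 0.25, 0.25 and 0.38. Msh3 lay 0.06, 0.06 and 0.19 above that median, and Msh6 changed sign, at -0.05, -0.05 and 0.08. In Q175 libraries the same contrast put Pms2 higher by 0.71, Lig1 by 0.51, Fan1 by 0.22 and Mlh3 by 0.18 log2, each past the test. Rrm2b passed there too (0.06, edgeR adjusted p = 0.0176), and Msh6 was lower (-0.165, adjusted p = 6.45e-06). Of 19642 genes in that fit, 8517 were called higher and 9122 lower.

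Within the brain, cerebellum was compared with the mean of the other 4 regions in the same fit. Of the 8 genes, 4 were higher in cerebellum, where 27.8% of all genes were called higher, and 2 were lower, where 37% were called lower; the median over all genes was -0.10 log2. Pms1 differed most, with 3.74 FPKM in cerebellum against 1.78 in the other regions and a difference of 0.96 ± 0.11 log2 (SE, adjusted p = 1.36e-12). Msh6 was higher by 0.41 ± 0.071 (7.6e-07), Pms2 by 0.34 ± 0.075 (6.6e-05) and Msh3 by 0.19 ± 0.049 (0.000591). Rrm2b was lower, at 7.77 against 11.6 FPKM and -0.72 ± 0.068 log2 (adjusted p = 3.41e-15), and Mlh3 was lower by 0.25 on the log2 scale (-0.25 ± 0.064, adjusted p = 0.000412). On FPKM values the Mlh3 difference shrank to -0.13 and no longer passed (adjusted p = 0.0793). Fan1 (-0.16, adjusted p = 0.202) and Lig1 (0.0018, adjusted p = 1.0) did not pass, with 95% intervals of -0.39 to 0.06 and -0.21 to 0.21.

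Because MSH3 and MSH6 stand in alternative MutS complexes, and PMS1, PMS2 and MLH3 in alternative MutL complexes, the ratio of their transcripts was taken in each library, as the log2 ratio of FPKM with 0.1 added to each; no test was made. Msh3 exceeded Msh6 in 8 of 8 wild-type libraries of gastrocnemius, heart and hippocampus and in none of those of cerebellum, gonadal adipose, intestinal adipose or skin. In gastrocnemius the ratio spanned 0.79 to 1.44 log2, and the mean Msh3 to Msh6 ratio of FPKM was 2.45 ± 0.377 (SD, n = 8). In intestinal adipose it spanned -1.42 to -0.58 log2, a mean ratio of 0.491 ± 0.108. The balance of the loop-binding to the mismatch-binding subunit thus differed between these tissues at the RNA level, with no overlap of libraries.

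Pms1 was below Pms2 in every wild-type library outside heart and brown adipose. The log2 ratio was -1.88 ± 0.226 in hippocampus (SD, n = 8) and 0.0072 ± 0.123 in heart, where Pms1 was the higher in 3 of 8 libraries. Mlh3 exceeded Pms2 in every wild-type library of brown adipose, heart, gastrocnemius and gonadal adipose, by a mean of 0.95 log2 in brown adipose. It was below Pms2 in every wild-type library of cerebellum (mean -0.96 ± 0.117), hypothalamus/thalamus (-0.49 ± 0.228) and skin (-0.30 ± 0.257). The pseudocount of 0.1 was also set to 0.01 and 1; no mean ratio changed sign under either, while values of low genes moved toward 0 with 1 (the closing section counts them).

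**Figure D2:**
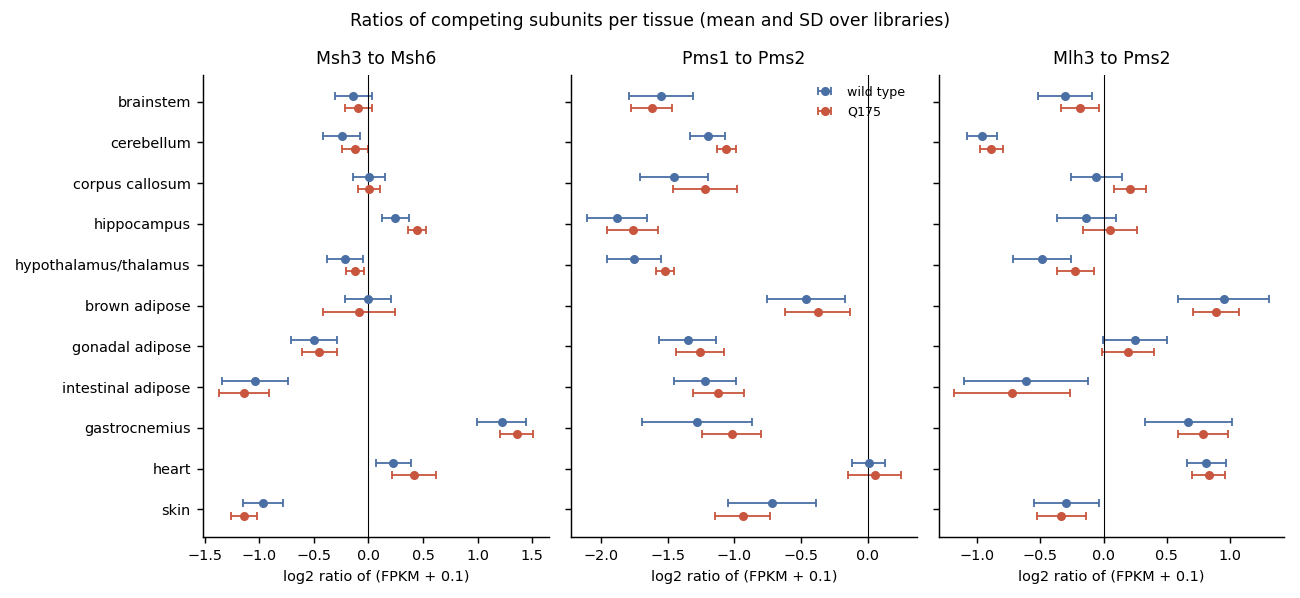
Log2 ratio of FPKM (0.1 added) for Msh3 to Msh6, Pms1 to Pms2 and Mlh3 to Pms2 (horizontal axes) in 11 tissues (rows); points are means and whiskers SD over libraries, wild type blue and Q175 red, and the vertical line marks equal levels. Msh3 to Msh6 runs from 1.22 in wild-type gastrocnemius to -1.04 in intestinal adipose, far beyond the distance between genotypes in any tissue.

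Lig1 and Msh6 act at replication forks, and 2 tissues held many transcripts of dividing cells. The summed level of 15 cell-cycle markers (Mki67, Top2a, Cdk1 and others) was 58.7 to 692 CPM (counts scaled to library size) in wild-type and 51.2 to 908 in Q175 libraries of intestinal adipose, 107 to 926 and 239 to 626 in skin, and at most 84.9 in any other tissue. Lymphocyte markers were also highest in intestinal adipose, at 820 to 3820 CPM in wild-type and 109 to 4390 in Q175 libraries. Across the 16 intestinal adipose libraries, Lig1 followed the dividing-cell sum with Pearson's r = 0.954 and Spearman's rho = 0.976 (two-sided permutation p = 1e-05 for each, the smallest that 100000 permutations can give). This relation was looked for after the data were seen, in a family of 17, and its Benjamini-Hochberg adjusted p was 0.00017 for r. Within wild-type libraries alone r was 0.907 and within Q175 libraries 0.992; without the 2 libraries farthest from the median sum it was 0.934.

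Pms1 (r = 0.882, rho = 0.894), Msh6 (0.867, 0.959), Pms2 (0.846, 0.924) and Msh3 (0.771, 0.888) also rose with the sum over these 16 libraries. Their adjusted permutation p was between 0.00025 and 0.0017 for r and 6.8e-05 or less for rho. The share of all genes that rise with this sum was not computed, so these relations by themselves set no member apart. Rrm2b was weaker (r = 0.572, adjusted p = 0.047; rho = 0.876, adjusted p = 0.00011), with r of 0.284 within wild-type and 0.963 within Q175 libraries. Mlh3 did not pass (r = 0.313, adjusted p = 0.3; rho = 0.538, adjusted p = 0.071), with r of 0.0794 within wild-type and 0.813 within Q175 libraries and 0.54 without the 2 farthest. Fan1 was the only gene with a negative value (r = -0.476, adjusted p = 0.12; rho = -0.418), and without the 2 farthest libraries its r was -0.027. The lymphocyte sum rose with the dividing-cell sum too (r = 0.801, adjusted p = 0.0023; rho = 0.865), so the share of each in these relations was not tested. In skin, 3 of 14 libraries stood apart with sums of 626 CPM or more. Relations in skin were computed only without these 3, over a narrowed range of sums. They therefore cannot show whether members followed the sum across all 14. Over the other 11, at 345 CPM or less, 7 of 8 members had an adjusted permutation p above 0.05 for r; Rrm2b had r = -0.691 (adjusted p = 0.047), which fell to 0.00565 in size without the 2 farthest libraries.

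**Figure D3:**
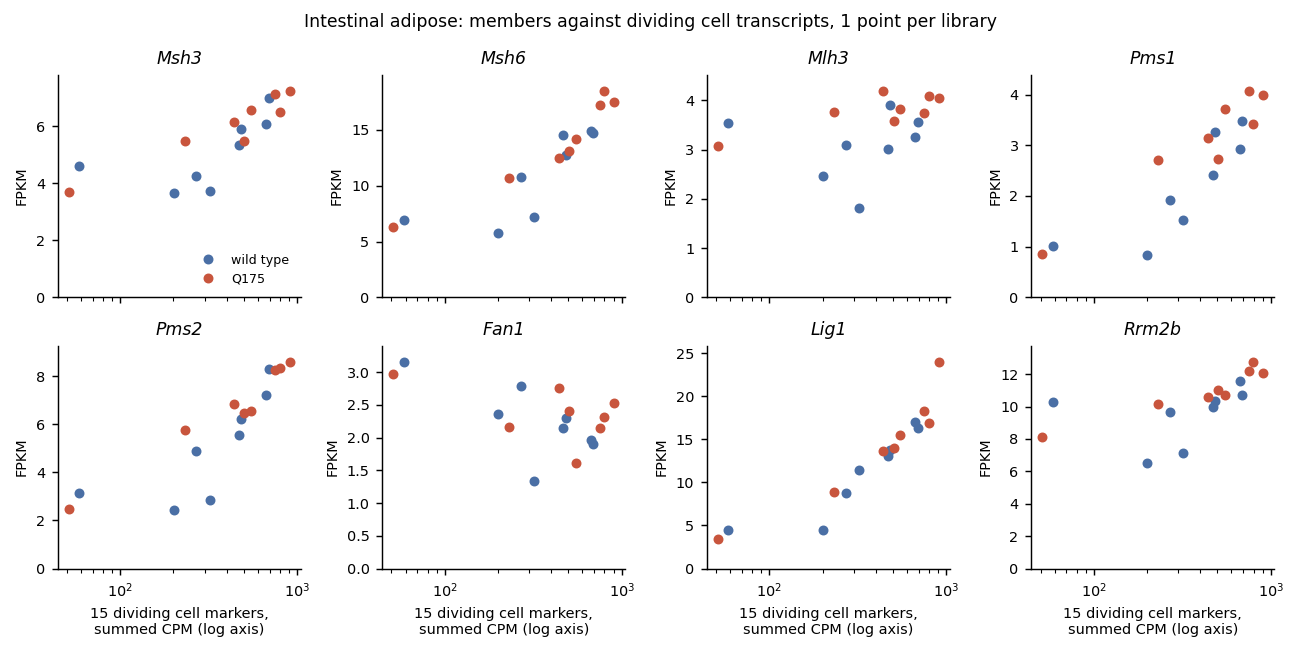
FPKM of each of the 8 genes (vertical axes, from 0) against the summed CPM of 15 dividing-cell markers (horizontal axis, log scale) in 16 intestinal adipose libraries, 8 wild type (blue) and 8 Q175 (red). Lig1, Pms1, Msh6, Pms2 and Msh3 climb with the marker sum; Fan1 is the only gene with a negative r, at -0.476.

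E2F factors bind promoters of replication genes. Of the 7 members with RefSeq promoter windows (build GRCm38.p6, 250 bases before to 50 after each annotated start), 3 hold an E2F-type motif, each in 1 window. The motifs searched on both strands were TTTCGCGC, TTTGGCGC, TTTCCCGC and TTTGCCGC, and at least 1 of them lies in 744 of all 32851 windows (2.26%). Windows were found for 7 of the 8 genes, 10 windows in all; Rrm2b had none. The 30 bases around the matches of Lig1 and Msh6 are shown 5′ to 3′ on the gene's own strand, with the motif in capitals, because this motif is known from promoters of replication genes.
Lig1, chr7:13278841-13278870, plus strand, from 16 to 45 bases after the start of 1 of its 3 windows: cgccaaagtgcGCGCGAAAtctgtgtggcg
Msh6, chr17:87975054-87975083, plus strand, from 5 to 34 bases after its start: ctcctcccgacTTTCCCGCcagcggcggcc

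Lig1 carries the reverse complement of TTTCGCGC and Msh6 carries TTTCCCGC; the window of Msh3 holds 2 overlapping matches, TTTGGCGC and the reverse complement of TTTCGCGC. The windows of Pms1 and Pms2, which also rose with the dividing-cell sum, hold none of these letters, nor do those of Mlh3 and Fan1. A match is a description of letters, and binding was not measured.

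Likeness of tissue pattern was measured as Pearson's r of mean log2 CPM with TMM scaling over the 11 wild-type tissues, against 16699 genes. It is a description with no test, and the tissues share animals. These r values are given under TMM scaling only. Lig1 was most like Prim2, the large primase subunit (r = 0.975), Pafah1b3 (0.946) and Hjurp, a centromere histone chaperone (0.939). Pms2 was most like Hirip3 (0.97), Tnk2os (0.962) and Mtf2, a Polycomb component (0.945); Mlh3 like Sympk, a polyadenylation scaffold (0.961), Ulk2 (0.94) and Zfp3 (0.94); Fan1 like the kinase Hipk2 (0.961), Dusp3 (0.941) and Lin52 (0.915); and Msh6 like Mitd1 (0.948), Bclaf3 (0.947) and Spty2d1 (0.945). For Rrm2b the nearest were Srp54a (0.941), Colgalt2 (0.93) and Dusp3 (0.914), for Msh3 Setmar (0.932), Gid4 (0.895) and D17Wsu92e (0.894), and for Pms1 Iws1 (0.902), Zfp866 (0.889) and Rif1 (0.86). Among the 8 genes themselves, Mlh3, Fan1 and Rrm2b had like patterns (Mlh3 with Rrm2b 0.843, Mlh3 with Fan1 0.808, Fan1 with Rrm2b 0.802), and Msh6 paired with Lig1 (0.793). Mlh3 and Msh6 ran opposite to each other on this scale (-0.928). On FPKM, Mlh3 was low where Msh6 was highest, in intestinal adipose (3.08 and 10.9) and skin (2.32 and 9.62). Both, however, had low FPKM means in heart (2.53 and 2.15) and brown adipose (2.3 and 3.36). The negative r therefore cannot be carried over to the FPKM levels.

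Between Q175 and wild-type mice the 8 genes changed little. Over 8 genes and 11 tissues, 3 of 88 edgeR tests passed at an adjusted p under 0.05, and 13 had an unadjusted p under 0.05, where 6.3% to 44.8% of all genes of a tissue did. Mlh3 and Rrm2b rose in brainstem, where 3.07% of 16563 genes were called, and Msh6 fell in gonadal adipose, where 32.1% of 16049 genes were called. No member was called in the other 9 tissues, where the share of all genes called was 16.1% in cerebellum, 6.53% in skin, 5.41% in brown adipose, 4.56% in hippocampus, 0.574% in hypothalamus/thalamus, 0.0549% in heart, 0.0544% in corpus callosum, 0.0213% in gastrocnemius and 0.0% in intestinal adipose; at an unadjusted p under 0.05, members numbered 2 in cerebellum, none in brown adipose and intestinal adipose, and 1 in each other. DESeq2 called the same number of members in each tissue except hippocampus, where it called 1.

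The 88 changes ran from -0.33 to 0.41 log2, with 53 above 0 and 35 below, and 82 were smaller than 0.25 in size. The 95% interval lay within a doubling or halving (1 log2 each way) in 87 of 88 cases, within 0.5 log2 in 79 and within 0.25 in 40. The exception to the widest bound was Pms1 in intestinal adipose, at 0.40 with an interval of -0.22 to 1.02. The median change of the 8 genes was furthest from that of all genes in intestinal adipose (0.20 against -0.03) and skin (0.15 against -0.05). In brain regions it was between -0.04 and 0.05 log2. These shifts were not particular to the members. In intestinal adipose the median was 0.20 for other mismatch repair genes, 0.28 for replication licensing and 0.20 for dividing-cell markers, but 0.052 for base excision genes and -0.01 for p53 targets. In skin it was 0.24 for replication licensing and 0.13 for crosslink repair, but -0.03 for dividing-cell markers.

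**Figure D4:**
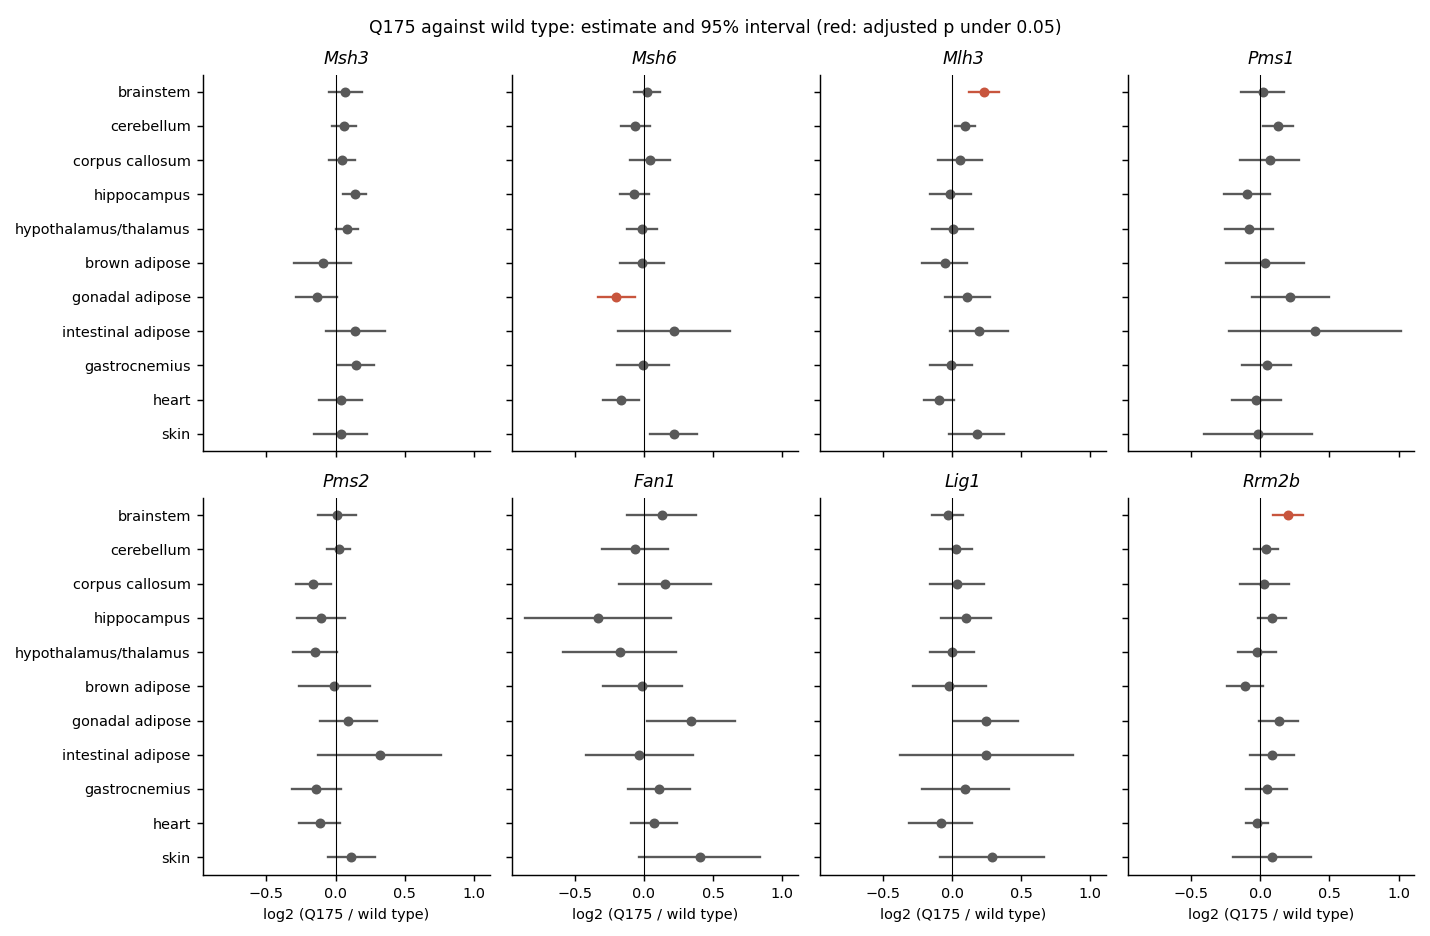
Log2 fold change of Q175 over wild type (horizontal axes) for each of the 8 genes in 11 tissues (rows), with 95% intervals from edgeR; red marks an adjusted p under 0.05. The 3 red points are Mlh3 and Rrm2b in brainstem and Msh6 in gonadal adipose, and intervals are widest in intestinal adipose, reaching 1.02 for Pms1.

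Mlh3 in brainstem was the change with the smallest adjusted p. Wild-type libraries spanned 3.33 to 4.52 FPKM with a median of 4.23, and Q175 libraries 4.54 to 5.24 with a median of 4.94. All 8 of 8 Q175 libraries were above the highest wild-type library, so the groups did not overlap. The fold change was 0.23 ± 0.053 log2 (SE, edgeR adjusted p = 0.0191). The lowest wild-type library (female 3) is also the brainstem library with a length slope, and without it the change was 0.19 (adjusted p = 0.00682); with the length trend removed from every library it was 0.15 (0.0243). The call was lost without Q175 female 3 (adjusted p = 0.0516), without Q175 male 4 (0.0675) and with the replicate number of the labels as a block in the fit (0.0689).

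Rrm2b, the p53-induced reductase subunit, was higher in brainstem as well. Wild-type libraries spanned 9.08 to 12.4 FPKM with a median of 10.7, and Q175 libraries 11.8 to 13.2 with a median of 12.6. The groups overlapped, with 6 of 8 Q175 libraries above the highest wild-type one. The change was 0.20 ± 0.052 log2 (SE, adjusted p = 0.0435), close to the threshold: it remained called in 2 of 16 fits without 1 library, those without wild-type female 2 (0.0143) or wild-type female 3 (0.0469), and adjusted p was 0.0531 with RLE, 0.0704 without the filter on low counts, 0.116 with the replicate block, 0.0755 with the length trend removed and 0.0772 without the Q175 male with wild-type Abhd1. The size was 0.14 to 0.23 log2 in all of these fits. In the same tissue 5 of 8 oligodendrocyte markers fell (median -0.37 log2), their sum being 16500 to 22200 CPM in wild-type and 13000 to 17700 in Q175 libraries, and 1 of 6 astrocyte markers fell; the part of cell composition in the Mlh3 and Rrm2b changes was not tested.

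Msh6 fell in gonadal adipose, by an amount that depends on the scaling. Wild-type libraries spanned 5.07 to 6.79 FPKM with a median of 6.07, and Q175 libraries 4.91 to 6.43 with a median of 5.74, so the groups overlapped almost fully. In females, Q175 libraries (4.91 to 5.61 FPKM) were all below wild-type ones (6.07 to 6.18, replicates 1 to 3). In males, Q175 libraries (5.88 to 6.43) lay within the wild-type range (5.07 to 6.79). The difference of the change between sexes did not pass (male minus female 0.21 ± 0.12 log2, SE, edgeR adjusted p = 0.514). The change was -0.20 ± 0.063 log2 (SE, adjusted p = 0.0257). It was -0.04 on FPKM values (adjusted p = 0.682) and -0.47 with the length trend removed (adjusted p = 0.000169), while the median of all genes moved to 0.17 and -0.14, so relative to that median it was -0.22, -0.21 and -0.33. The sample labels carry a code that looks like a lane, called the lane code here, though its meaning is not stated. The call was lost with the lane code as a term (adjusted p = 0.205) and without the 6 libraries with a length slope (0.136). It was also lost with the replicate block (0.0757) and without wild-type female 2 (0.0601). Without those 6 libraries 2 genes of the whole tissue were called, against 5148 with them.

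Several cell-type markers differed between the gonadal adipose groups. Of the macrophage markers 8 of 11 rose, with sums of 243 to 777 CPM in wild-type and 682 to 836 in Q175 libraries, and 3 of 6 fat cell markers fell while 1 rose. Of the dividing-cell markers 3 of 15 rose, and of the lymphocyte markers 3 of 12. Epididymis markers summed to at most 2.0 CPM in wild-type libraries, to 0.479 to 4.63 in Q175 females and to 123 to 3410 in Q175 males, while Q175 libraries lay below all wild-type ones for Msh6 in females. Their part in the Msh6 change was not tested.

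**Figure D5:**
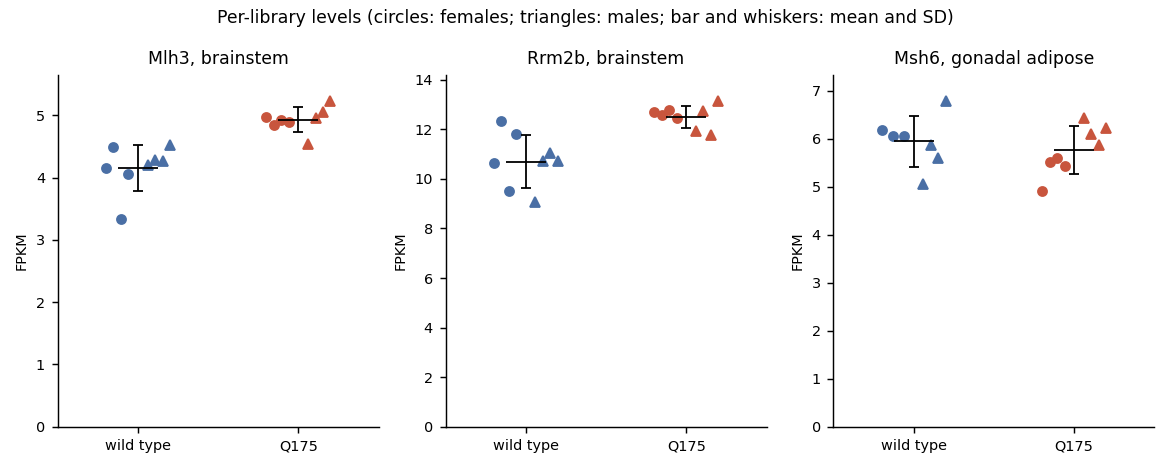
FPKM per library (vertical axes, from 0) in wild-type (blue) and Q175 mice (red) for Mlh3 and Rrm2b in brainstem and Msh6 in gonadal adipose; circles are females, triangles males, bar and whiskers the mean and SD. For Mlh3 the lowest Q175 library (4.54 FPKM) lies above the highest wild-type one (4.52), while the Msh6 groups overlap.

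Msh3, the loop-binding subunit, came near the threshold in hippocampus. Wild-type libraries spanned 5.35 to 5.91 FPKM with a median of 5.62, and Q175 libraries 5.48 to 6.75 with a median of 6.43; 7 of 8 Q175 libraries exceeded every wild-type one. The change of 0.14 ± 0.04 log2 (SE) had an adjusted p of 0.062. It passed with DESeq2 (adjusted p = 0.0291), with the length trend removed (0.0165) and without the 2 hippocampal libraries with a length slope (0.157 log2, adjusted p = 0.0174), and in 1 of 16 fits without 1 library, that without Q175 female 3 (0.0186). In hippocampus 5 of 7 excitatory neuron markers fell (median -0.35 log2), with sums of 6340 to 7310 CPM in wild-type and 4890 to 6110 in Q175 libraries, and 1 of 6 astrocyte markers fell; their part in the Msh3 values was not tested. The Msh3 to Msh6 ratio in hippocampus was 0.24 ± 0.123 log2 in wild-type and 0.44 ± 0.0825 in Q175 libraries (SD, n = 8 each), and its difference was not tested.

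Fan1 had both the lowest and the highest estimates of the 88, and neither passed. In hippocampus wild-type libraries spanned 2.54 to 3.43 FPKM with a median of 2.95, and Q175 libraries 0.555 to 3.66 with a median of 3.07. The change of -0.33 ± 0.25 log2 (SE, adjusted p = 0.411) rested on Q175 females 3 and 4 (0.555 and 1.27 FPKM), the 2 libraries of that tissue with a length slope, and was -0.0079 (adjusted p = 0.984) without them. In skin, wild-type libraries spanned 0.705 to 1.64 FPKM and Q175 libraries 1.13 to 1.99, and the change was 0.41 ± 0.20 (adjusted p = 0.213). Lig1 in skin spanned 10.7 to 27.3 FPKM in wild-type and 13.3 to 24.6 in Q175 libraries. Its change was 0.29 ± 0.18 (adjusted p = 0.3), and 0.66 (adjusted p = 0.0197) without the 4 skin libraries with a length slope. Those 4 were Q175 female 4, wild-type female 2 and wild-type males 1 and 2. The 2 males had the highest wild-type values, 22.5 and 27.3 FPKM. Mean Lig1 FPKM was higher in Q175 females and lower in Q175 males, with an edgeR adjusted p of 0.262 for the sex difference. Pms1 and Mlh3 in cerebellum (0.13, adjusted p = 0.105; 0.09, adjusted p = 0.0856) did not pass. Pms2 had its smallest adjusted p in corpus callosum, at -0.16 ± 0.059 log2 (0.219), where Mlh3 exceeded Pms2 in 2 of 8 wild-type and in 8 of 8 Q175 libraries, a difference that was not tested.

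Whether the change differed between the 11 tissues was tested in a limma-voom fit over all libraries with the correlation of libraries from 1 animal. It passed for 3 of the 8 genes, Pms2 (adjusted p = 0.00666), Msh6 (0.0132) and Mlh3 (0.0215), in a fit where 42% of 20662 genes passed, so the share of members was near the background. Msh3 (0.0591), Fan1 (0.119), Rrm2b (0.244), Pms1 (0.247) and Lig1 (0.468) did not pass. Without the libraries with a length slope, Mlh3 no longer passed (0.121), while Pms1 (0.0404) and Lig1 (0.0092) did. A difference between the sexes passed in 0 of 88 tests of members by edgeR, where 0.0212% of 174624 gene and tissue tests passed; 7 of 88 had an unadjusted p under 0.05 and the smallest adjusted p was 0.222.

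In each tissue with a pathway call, the share of pathway genes called was no higher than that of all genes. Of 99 other genes in 7 lists (other mismatch repair genes, meiotic mismatch repair, base excision and single-strand break repair, interstrand crosslink repair, deoxynucleotide supply, p53 targets and replication licensing), 5 rose and 8 fell of 95 tested in cerebellum, 13 rose and 15 fell of 97 in gonadal adipose, and 3 rose and 1 fell of 98 in skin, where 16.1%, 32.1% and 6.53% of all genes were called. In brown adipose 1 rose and 1 fell, in brainstem 1 rose and in hippocampus 1 fell. None passed by edgeR in the other 5 tissues, where those with an unadjusted p under 0.05 numbered 2 to 14, and DESeq2 called 1, in hypothalamus/thalamus. The counts moved with the fit. In gonadal adipose, against 28, they were 35 with DESeq2, 13 with the replicate block, 2 with the lane code in the fit and 0 without the libraries with a length slope. In skin, against 4, they were 13 with DESeq2, 11 without the libraries with a length slope, 2 with the lane code and 0 with the replicate block. Hippocampus, with 1, gave 7 with DESeq2 and 2 without the libraries with a length slope, and brown adipose, with 2, gave 5 and 4.

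In cerebellum the mismatch repair list gave 1 rise of 17, the clamp loader subunit Rfc1 (0.12 ± 0.031 log2, adjusted p = 0.0133), with a list median of -0.04 against -0.0049 for all genes. The meiotic homologue Msh5 fell from 2.35 to 1.42 FPKM (-0.76 ± 0.11, adjusted p = 6.87e-05). The crosslink repair genes Fancl (0.35) and Fancc (0.12) and the dNTPase Samhd1 (0.14) rose, and the nucleoside diphosphate kinase Nme1 (-0.11), the helicase subunits Mcm4 (-0.19) and Mcm2 (-0.21) and the p53 targets Phlda3 (-0.34) and Aen (-0.13) fell, with adjusted p from 0.00114 to 0.0144. In the same tissue 8 of 8 oligodendrocyte markers fell (median -0.45 log2), with sums of 4320 to 5220 CPM in wild-type and 2930 to 4070 in Q175 libraries, and 3 of 6 astrocyte and 3 of 7 cerebellar neuron markers fell; their part in these calls was not tested. On FPKM values Fancl and Nme1 did not pass (adjusted p = 0.215 and 0.273). In brainstem the single call was the p53 target Eda2r, a receptor of the tumour necrosis factor family, at 0.304 against 0.497 FPKM (0.72 ± 0.15 log2, adjusted p = 0.009), the only rise among 17 tested p53 targets, whose median was -0.007. In hippocampus Mcm6 fell (-0.28 ± 0.057, adjusted p = 0.0108).

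In gonadal adipose the polymerase delta subunits Pold1 and Pold4 changed in opposite directions (0.35 and -0.30 log2), as did the crosslink genes Fanca (2.29) and Fancl (-0.35), the nucleotide enzymes Tk1 (0.38) and Nme1 (-0.59) and the p53 targets Perp (1.27) and Aen (-0.27). The glycosylase Neil2 (-0.71) and the end-cleaning enzyme Aptx (-0.21) fell, and Msh5 (0.79), Mcm5 (0.53) and Mcm6 (0.42) rose, with adjusted p from 0.00127 to 0.025. In skin Neil2 fell (-1.08, adjusted p = 0.0135) and Fancg (0.24, 0.0387), Zmat3 (0.40, 0.0145) and Mcm6 (0.42, 0.0407) rose. Fancg lost its call in 8 and Mcm6 in 10 of 14 fits without 1 skin library, and both lost it without the Q175 male with wild-type Abhd1 (adjusted p = 0.0714 and 0.053) and with the length trend removed (0.0529 and 0.0666). Without the libraries with a length slope Fancg (0.0661), Mcm6 (0.0686) and Zmat3 (0.056) were not called. In brown adipose Phlda3 rose (0.49, 0.0114) and Eda2r fell (-1.65, 0.0174). None of these named genes changed sign under any alternative run. Beside them, skeletal muscle markers summed to 21.7 to 17900 CPM in wild-type and 4.09 to 798 in Q175 libraries of brown adipose, and hair follicle markers to 10.5 to 29600 and 11.6 to 17.4 in skin; their part in these calls was not tested.

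The same lists were followed across tissues. In the wild-type brain against periphery contrast with TMM, where 46.2% of all genes were called lower and their median was -0.08 log2, 11 of 11 replication licensing genes (median -1.07), 16 of 17 p53 targets (-0.99), 8 of 13 deoxynucleotide supply genes (-0.89), 14 of 17 base excision genes (-0.60), 13 of 17 other mismatch repair genes (-0.59), 10 of 22 crosslink repair genes (0.015) and the 1 meiotic gene tested (-0.66) were lower in brain. Of the crosslink repair genes 8 were higher. Of the 8 members 1 was lower and 4 were higher (median 0.14). On FPKM 8 were higher, as were 11735 of 19928 genes, and the lists were not computed under that scaling.

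Reads of neighbouring genes could enter these values, since the labels do not say whether libraries keep strand. In the GENCODE M21 annotation (not stated to be the authors'), exons of Lig1 share 247 bases with Zswim9, those of Rrm2b 734 with Gm49085, those of Pms1 138 with Gm28777 and those of Msh6 34 with Fbxo11, each on the other strand; those of Pms2 share 394 bases with Gm42421 and 85 with Rsph10b on the same strand. Mlh3 and Fan1 share none. Of the neighbouring genes described here, Fbxo11, next to Msh6, rose in cerebellum, and Acyp1, Ormdl1, Aimp2 and Mtmr10 passed in none of 11 tissues.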

How the data were processed

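Polyadenylated RNA of flash-frozen tissue was sequenced on Illumina HiSeq instruments, per the labels' protocols; CASAVA 1.8.2 is listed in the submitters' processing notes, while aligner, counter, genome build and strand setting are not given in the sources at hand. The authors deposited a table of estimated counts per gene, in which 31.3% of values above 0 are not whole, and a table of FPKM scaled by gene length and library size, for 38561 genes in each library. Column names were matched to sample labels.

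Estimated counts were rounded and tested with edgeR 4.0.16 (robust quasi-likelihood F-test, TMM, filterByExpr by genotype, sex as a covariate, 1 fit per tissue), with Benjamini-Hochberg adjustment over all genes that passed the filter and a threshold of 0.05. Tissue contrasts were fitted on wild-type libraries with animal as a term, and the difference of the change between tissues with limma 3.58.1 (voom, with the correlation within animals). FPKM gave the levels, and ratios used a pseudocount of 0.1. Alternatives were RLE, DESeq2 1.42.0, no filter, no sex term, a replicate block, a lane code term, limma on log2(FPKM + 0.1), removal of the length trend, and fits without single libraries, without libraries with a length slope and without 1 animal. R 4.3.3 and Python 3.11.15 were used, and the fits were tested on simulated data.

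Totals were 28 to 48 M counts per library, and precision is given by the spread between animals as SD, SE or interval. The replicates are 16 animals, and within a tissue each library is from a different mouse. P-values of genotype and sex tests within a tissue thus measure the spread between mice. The tissue contrasts used up to 11 libraries from each of 8 wild-type mice. With animal as a term, their p-values measure the spread left between libraries, not that between mice. The fit of all tissues also took several libraries per mouse, with their correlation. The text names the 8 genes in every tissue, up to 2 called genes with the smallest p per pathway list and tissue, the neighbouring genes and the 3 genes most alike in tissue pattern; the members and lists were chosen with earlier results of these data known. Some genes that the rule would name are not reported here. Single outlying values were looked for by Dixon's criterion.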

Additional observations from a re-analysis of the deposited data

Results flagged for a closer look

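Among 176 groups of 6 to 8 libraries (8 genes, 11 tissues, 2 genotypes), 15 held a library that stood apart from the rest of its group by Dixon's 95% criterion; chance flags about 1 in 20 groups. For Mlh3 it was brainstem of wild-type female 3, the lowest at 3.33 FPKM, and for Msh6 brainstem of Q175 female 1, the highest at 7.18. For Pms1 they were cerebellum of Q175 male 2 (4.91, highest), corpus callosum of Q175 female 3 (3.0, highest) and intestinal adipose of Q175 male 2 (0.85, lowest). For Pms2 they were heart of wild-type male 4 (1.0, lowest), hypothalamus/thalamus of Q175 female 2 (3.27, lowest) and intestinal adipose of Q175 male 2 (2.46, lowest). For Fan1 they were brown adipose of wild-type male 1 (0.92, lowest), heart of wild-type female 2 (1.04, lowest), heart of Q175 male 4 (1.78, highest) and hypothalamus/thalamus of Q175 female 2 (1.18, lowest). For Lig1 it was hippocampus of Q175 female 3 (4.18, highest), and for Rrm2b hypothalamus/thalamus of wild-type male 2 (9.45, lowest) and of Q175 female 2 (9.52, lowest). The brainstem, brown adipose, hippocampus, intestinal adipose and hypothalamus/thalamus libraries named here, except brainstem of Q175 female 1, are among the 23 with a length slope; the part of that slope in these values was not tested.

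The change between genotypes differed between tissues for Pms2 (adjusted p = 0.00666), Msh6 (0.0132) and Mlh3 (0.0215), by limma's F-test of the interaction, in a fit where 42% of all genes passed.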

How the results depend on the processing

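Of the 2 members called in brainstem, 1 was called with RLE, 1 without the filter, 1 with the length trend removed, 1 without the Q175 male with wild-type Abhd1, 0 with the replicate block, and 0 to 2 without single libraries. In gonadal adipose, with 1, the count was 0 with the replicate block, 0 with the lane code and 0 without libraries with a length slope. It was 3 with the length trend removed, 5 by limma on FPKM and 0 to 2 without single libraries. The median of all genes there moved from 0.02 log2 to -0.14 with the trend removed and to 0.17 on FPKM. These counts by themselves therefore set no member apart. In hippocampus, with 0, the count was 2 with the length trend removed, 2 without libraries with a length slope, 1 with DESeq2 and 0 to 1 without single libraries. Skin, with 0, gave 1 without libraries with a length slope and 0 to 1 without single libraries, and cerebellum, with 0, gave 0 to 1. In the brain against periphery contrast the 4 higher became 7 with RLE and 8 on FPKM, and the 1 lower became 0 with each. The 2 lower in cerebellum became 1 on FPKM. Over all 19928 genes, the 8563 higher in brain became 9283 with RLE and 11735 on FPKM, and the 9214 lower became 8516 and 6857. The 7381 genes lower in cerebellum became 6336 on FPKM.

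With the length trend removed, these changes took the opposite sign: Msh6 in brainstem (-0.037 log2) and brown adipose (0.0795); Mlh3 in brown adipose (0.0314) and gonadal adipose (-0.205, adjusted p = 0.0112 by edgeR); Pms2 in gonadal adipose (-0.118); and Rrm2b in gastrocnemius (-0.032), gonadal adipose (-0.149) and intestinal adipose (-0.0401). On FPKM, Msh3 (0.0204) and Lig1 (-0.0236) in gonadal adipose, Lig1 in heart (0.0344) and hypothalamus/thalamus (0.147) and Pms1 in hypothalamus/thalamus (0.000452) did. With the lane code, Pms2 in brown adipose (0.127) and Rrm2b in gastrocnemius (-0.065) did. Without libraries with a length slope, Mlh3 in hippocampus (0.0823), Pms1 in hypothalamus/thalamus (0.00854) and Rrm2b in skin (-0.0864) did. Brain against periphery reversed for Msh3 with RLE (0.116), FPKM (0.611) and Q175 libraries (0.0261), Msh6 with RLE (0.0112) and FPKM (0.506), and Pms1 with Q175 libraries (-0.0112); here the median of all genes moved with the scaling. For the other values the cause was not tested. Of the remaining results for single genes and ratios, 3181 kept their side of the threshold with no change of sign beyond 1 SE, 102 lost and 24 gained a call, and 24 ratios moved, all with a pseudocount of 1.

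Calls over all genes with the replicate block were 282 in brainstem, against 509, 170 in brown adipose (790), 0 in corpus callosum (9), 0 in gastrocnemius (3), 2877 in gonadal adipose (5148), 409 in hippocampus (743), 12 in hypothalamus/thalamus (96) and 0 in skin (1077). The replicate numbers do not pair the animals: correlations of 85 pairs ran from -0.414 to 0.719, 29 of them over 0.1. Without libraries with a length slope, calls were 1354 in brown adipose, 0 in corpus callosum, 2 in gonadal adipose and 300 in skin. With the lane code they were 220 in brown adipose, 0 in corpus callosum, 0 in gastrocnemius, 561 in gonadal adipose, 387 in hippocampus, 36 in hypothalamus/thalamus and 263 in skin. With DESeq2 they were 1205 in brown adipose, 193 in corpus callosum, 16 in gastrocnemius, 1277 in hippocampus, 325 in hypothalamus/thalamus, 10 in intestinal adipose (0 by edgeR, with 1297 genes at an unadjusted p under 0.05) and 2722 in skin.

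Heart, with 8, gave 75 with DESeq2, 13 with the replicate block, 4 without the sex term, 3 with the lane code and 3 on FPKM. Gastrocnemius gave 0 without the sex term and 0 on FPKM, and gonadal adipose 3402 without the sex term. With the length trend removed, calls were 1416 in hippocampus and 285 in hypothalamus/thalamus. Without the Q175 male with wild-type Abhd1 they were 437 in brown adipose, 1 in intestinal adipose and 284 in skin. Cerebellum stayed within 1.5 times its 2572 under each of these alternatives. What depth alone limits was not tested; intervals were widest in intestinal adipose.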
